A study of Mus musculus with 2 samples.

Results

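The 32 genes described here encode the machinery of mitosis and cytokinesis, from cyclin-dependent kinase Cdk1 and its cyclins to the proteins that build the spindle and cut the dividing cell. They were taken as a fixed list of gene symbols, chosen with earlier results of these data known. All 32 were found among the 55536 mouse genes of the deposited tables. Total RNA was sequenced from whole hearts of male B6CASTF1/J mice aged 4 days, the F1 hybrids of C57BL/6J and CAST/EiJ, from The Jackson Laboratory. There is 1 group of 2 libraries, replicates 1 and 2, with no treatment and no engineered allele. Each library was made from 300 ng of total RNA, stranded and reduced in ribosomal RNA, with ERCC spike-ins, which are synthetic RNAs added in known amounts. The labels number the 2 animals differently but give both the same donor record, so spread between the libraries may be technical.

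A cell enters mitosis when Cdk1 bound to cyclin B phosphorylates its many targets, and it leaves when the anaphase-promoting complex (APC/C) marks cyclin B and securin for destruction. In between, kinetochores tie chromosomes to spindle microtubules, a checkpoint holds back the APC/C until every chromosome is attached, and the chromosomal passenger complex corrects wrong attachments. Cytokinesis then needs a central spindle, which brings the activator of the small GTPase RhoA to the cell equator. These genes are silenced in resting cells and transcribed together in late G2 and M phase, under the DREAM and MuvB complexes acting through the CHR promoter element, with NF-Y bound at nearby CCAAT boxes and with FoxM1 and B-Myb. In the mouse heart the first days after birth are when muscle cells leave the cell cycle, many of them after a last division of the nucleus that is not followed by division of the cell, while fibroblasts and endothelial cells go on dividing.

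The libraries held 31512574 and 35743975 counts on mouse genes, with spike-ins at 0.5877% and 0.5446% of all counts. Cardiomyocyte markers were present, with 12 of 12 expressed and Myl2, the ventricular myosin light chain, at 8793 and 8144 TPM (a transcript abundance corrected for gene length and scaled to the library). The common coefficient of variation between the libraries, estimated by edgeR, was 15.2%. With 1 group of 2 libraries no contrast exists and an exact sign-flip test could not give a p below 0.5, so the differences between the hearts below are descriptions of these libraries. In whole tissue, fewer cells of a type and less RNA per cell cannot be told apart.

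The promoters of these genes were examined first, because their shared regulation runs through short sequence elements near the transcription start. RefSeq promoter windows (GRCm38.p6, 250 bases before to 50 after the start) were held for 27 of the 32 genes, all but Ccna2, Incenp, Kif20a, Tpx2 and Aurkb. The CHR element was searched as TTTGAA, with its less common form TTCGAA counted as well, and the box bound by NF-Y as CCAAT. Both strands were searched, so a CHR may read TTCAAA along the gene and the box of NF-Y may read ATTGG, while the less common form is its own reverse complement. Matches were allowed to overlap. The lines below show CHR matches within 50 bases of the start, 1 gene a line, with 12 bases on each side and the element in capitals. They were chosen to span the roles of the genes, each is written along the strand of its gene, and the number of the first CHR base relative to the start follows in the next paragraph.
Cdk1: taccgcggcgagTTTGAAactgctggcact
Ccnb2: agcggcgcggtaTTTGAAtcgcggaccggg
Plk1: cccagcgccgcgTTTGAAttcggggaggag
Bub1: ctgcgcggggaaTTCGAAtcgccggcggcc
Cdc20: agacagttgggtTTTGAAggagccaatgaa
Ube2c: ggagggttgcaaTTCAAAcgcgggcggcgg
Cenpf: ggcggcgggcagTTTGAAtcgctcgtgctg
Top2a: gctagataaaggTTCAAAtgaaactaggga
Kif11: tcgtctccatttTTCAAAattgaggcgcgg
Hmmr: agttgaggtaaaTTTGAAttcaggcgagct
Prc1: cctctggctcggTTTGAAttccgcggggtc
Racgap1: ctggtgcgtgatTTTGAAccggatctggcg
Kif23: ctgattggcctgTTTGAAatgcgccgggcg

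The Cdk1 site lies on the minus strand at chr10:69352910-69352939 with its CHR at base -15, and the Ccnb2 site lies on the minus strand at chr9:70421533-70421562 with its CHR at base 5. The Plk1 site is at chr7:122159453-122159482 on the plus strand (base 31), and the Bub1 site, the only one shown with the TTCGAA form, is at chr2:127831828-127831857 on the minus strand (base 15). Cdc20 (chr4:118437344-118437373, minus strand, base -18) and Ube2c (chr2:164769888-164769917, plus strand, base -29) carry theirs just before the start. Cenpf has its site at chr1:189688067-189688096 on the minus strand (base 3), and Top2a at chr11:99024195-99024224 on the minus strand (base -23). Kif11 has its site at chr19:37376351-37376380 on the plus strand (base -19), and Hmmr at chr11:40733412-40733441 on the minus strand (base 9). The 3 cytokinesis sites shown are those of Prc1 at chr7:80294434-80294463 on the plus strand (base -5), Racgap1 at chr15:99651634-99651663 on the minus strand (base 6) and Kif23 at chr9:61946780-61946809 on the minus strand (base 3). In Ube2c, Top2a and Kif11 the element reads on the strand opposite to the gene.

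A CHR match was present in 22 of the 27 genes (81.5%), against 21.7% of the 27025 genes with a window and 16.1% of the 9292 expressed protein-coding genes with one. Some of the 27, such as Cep55, had more than 1 window, and a match in any of them counted. The 5 genes without a match were Birc5, Ccnb1, Cenpe, Nuf2 and Nusap1. Counting matches within 50 bases of the start on either side, a width chosen after seeing where they fell, 21 of 27 genes had one (77.8%), against 6.12% of all genes. A CCAAT box was present in 21 of 27 (77.8%), against 41.1%, and at least 2 boxes in 14 of 27 (51.9%), against 13.3%. A CHR near the start together with a CCAAT box in the 100 bases before it was found in 17 of 27 genes (63.0%), against 1.24% of all genes. A match describes letters and does not show that a factor binds there.

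The 100 bases before the start show how the boxes were spaced in 3 genes with several of them, with every element on either strand in capitals, and in Birc5, which had neither element in its window. They lie at chr11:99024190-99024289 (Top2a, minus strand), chr9:70421555-70421654 (Ccnb2, minus strand), chr11:40733438-40733537 (Hmmr, minus strand) and chr11:117849137-117849236 (Birc5, plus strand).
Top2a: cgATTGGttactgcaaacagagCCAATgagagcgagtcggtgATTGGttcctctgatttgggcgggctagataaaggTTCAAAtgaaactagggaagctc
Ccnb2: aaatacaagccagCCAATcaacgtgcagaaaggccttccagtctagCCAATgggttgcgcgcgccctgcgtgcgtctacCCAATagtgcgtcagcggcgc
Hmmr: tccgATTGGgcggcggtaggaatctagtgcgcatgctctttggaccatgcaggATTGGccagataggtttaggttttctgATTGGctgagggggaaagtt
Birc5: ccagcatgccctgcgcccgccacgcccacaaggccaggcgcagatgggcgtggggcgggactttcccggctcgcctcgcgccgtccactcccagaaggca

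**Figure D1:**
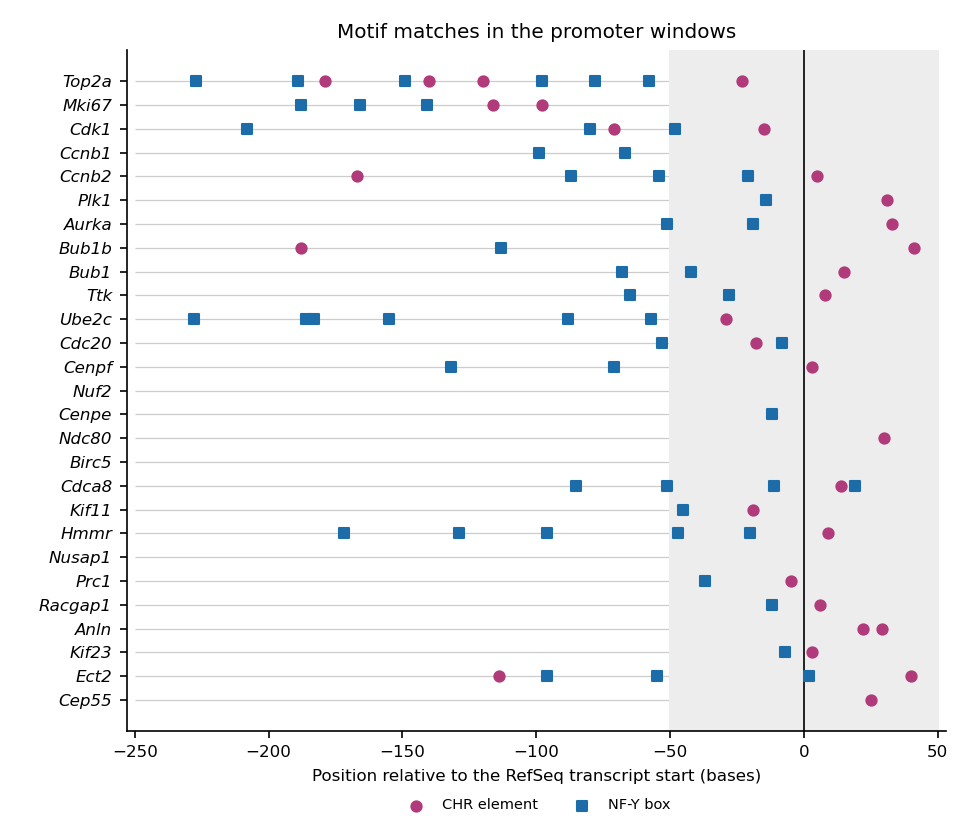
Positions of CHR matches (circles) and CCAAT boxes (squares) in the promoter window of 27 genes, in bases from the RefSeq start (vertical line), both strands, with 1 window a gene and the 50 bases on either side of the start shaded. The CHR matches gather in the shaded strip in 21 of the 27 genes, most with CCAAT boxes before them, and Nuf2, Birc5 and Nusap1 have neither.

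All 32 genes were expressed, which here means 1 TPM or more in each library. That level was reached by 23.8% of all mouse genes and by 11854 of 22015 nuclear protein-coding genes. Their median level was 18.5 TPM, with medians of 15.8 in replicate 1 and 21.8 in replicate 2, and 25 of 32 lay above the median of 12.2 TPM over 11854 expressed protein-coding genes of the nucleus. Levels ran from 6.595 TPM for Ttk to 65.8 TPM for Top2a, a 9.97-fold range. The sum of the 32 came to 614 and 807 TPM, or 0.0717% ± 0.0137 of mouse-gene TPM (SD, n = 2, as for all values with ± below). Each gene had between 345 and 11592 expected counts in a library, and each TPM lay inside its deposited interval.

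Top2a and Mki67, which act on chromosomes as a whole, were among the 5 highest. Top2a (chromosome 11, 98992943 to 99024189), a topoisomerase that decatenates sister chromatids, had 58.62 TPM in replicate 1 and 72.90 in replicate 2. Mki67 (chromosome 7, 135689784 to 135716361), whose protein coats mitotic chromosomes and keeps them apart, had 32.83 and 40.39 TPM. For both genes replicate 2 was the higher.

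The kinase that drives entry into mitosis and its cyclins had a median of 30.6 TPM. Cdk1 (chromosome 10, 69335146 to 69352938) had 40.90 and 54.39 TPM. Ccna2, the cyclin of S phase and early mitosis, had 28.67 and 40.06 TPM. Of the B-type cyclins that hold Cdk1 active until anaphase, Ccnb1 (chromosome 13, 100778650 to 100786570) had 21.21 and 32.50 TPM and Ccnb2 had 18.28 and 24.31. All 4 were higher in replicate 2, and Ccnb1 was above Ccnb2 in both hearts, by log2 TPM ratios of 0.21 and 0.42. In replicate 1 the deposited intervals of Ccnb1 and Ccnb2 overlapped.

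The 2 APC/C partners were high. Ube2c (chromosome 2, 164769898 to 164778822), the ubiquitin-conjugating enzyme that starts chains on APC/C substrates, had 32.54 and 54.58 TPM. Cdc20, the activator that the checkpoint inhibits, had 22.05 and 28.63 TPM. Ube2c exceeded Cdc20 in both hearts.

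Mitotic kinases and checkpoint genes were lower. Plk1, which promotes mitotic entry and centrosome maturation, had 12.79 and 15.11 TPM, and Aurka, the centrosome and spindle kinase, had 10.18 and 16.18. Bub1b, whose product BubR1 is part of the checkpoint complex that binds Cdc20, had 15.57 and 16.56 TPM. Bub1, the kinase that recruits checkpoint proteins to kinetochores, had 7.16 and 9.58, and Ttk, the kinase that starts checkpoint signalling, had 6.43 and 6.76. The 3 checkpoint genes had a median of 8.37 TPM, the lowest of the 9 roles, and Ttk was the lowest of all 32 genes.

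Kinetochore genes had a median of 11.0 TPM. Cenpf, a large farnesylated protein of the outer kinetochore, had 13.41 and 20.78 TPM. Nuf2 had 11.31 and 15.04 and its partner Ndc80 had 7.90 and 8.93, both subunits of the complex that grips microtubule ends. Cenpe, the motor that carries chromosomes to the spindle equator, had 8.94 and 8.58 TPM, and was 1 of only 2 genes with a lower TPM in replicate 2.

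The other such gene was Incenp (chromosome 19, 9872296 to 9899551), the scaffold of the passenger complex, with 30.17 and 28.63 TPM. By these gene-level values it was the highest of the 4 subunits in replicate 1 and in replicate 2. Short forms carried much of this level, led by Incenp-208 (577 nt) with 8.03 and 8.67 TPM. The long forms Incenp-205 (2643 nt) and Incenp-201 (3236 nt) had 6.51 and 5.34 TPM and 3.66 and 3.96 TPM. The leading forms Birc5-201 (17.02 and 25.19 TPM) and Cdca8-202 (14.18 and 21.74 TPM) were each above any single Incenp form. Birc5 (survivin) had 18.13 and 26.47 TPM, Cdca8 (borealin) 15.55 and 24.67, and the kinase Aurkb 14.25 and 15.95. Birc5 and Cdca8, which with Incenp place the complex on centromeres, were those of the complex with the wider gap between hearts. By a second quantification, described further on, Incenp was the highest in replicate 1 alone (36.7 TPM). In replicate 2 it had 29.8 TPM, below Cdca8 (58.9) and Birc5 (37.2).

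Among spindle genes, Tpx2, which activates Aurka on microtubules, had 17.23 and 17.80 TPM. Kif11, the motor that pushes spindle poles apart, had 12.52 and 15.44, Hmmr, a spindle pole protein, 9.47 and 15.25, and Nusap1, a microtubule bundler, 8.95 and 9.81. By TPM, Tpx2 and Nusap1 were nearly level between the hearts, while the Hmmr values were the farthest apart of the 4. From the scaled counts described below, the log2 ratio of replicate 2 over replicate 1 was above 0 for both. It was 0.22 (0.12 to 0.33) for Tpx2 and 0.23 (0.08 to 0.38) for Nusap1.

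Cytokinesis genes covered almost the whole range of levels. Prc1 (chromosome 7, 80294450 to 80316259), which bundles the antiparallel microtubules of the central spindle, had 36.77 and 55.60 TPM. Racgap1 and Kif23, which together form centralspindlin, had 26.34 and 37.16 TPM and 23.21 and 23.49 TPM. Anln, the anillin scaffold of the contractile ring, had 19.00 and 29.23, and Kif20a, which carries the passenger complex to the central spindle, had 16.09 and 22.84. Ect2, the exchange factor that activates RhoA and is recruited by centralspindlin, had 10.44 and 11.88 TPM. Cep55, which organises the final cut at the midbody, had 7.23 and 7.76 TPM, the second lowest of the 32.

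The order of levels was alike in the hearts as a whole, with Spearman's rho of 0.962 across the 32 genes, which are not independent replicates. Between neighbours it was mostly not resolved. Of 31 neighbouring pairs in the order of mean TPM, 9 kept the same order in both libraries and only 4 had ranges that did not overlap. These were Top2a over Cdk1, Ect2 over Nusap1, Nusap1 over Cenpe and Cep55 over Ttk.

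**Figure D2:**
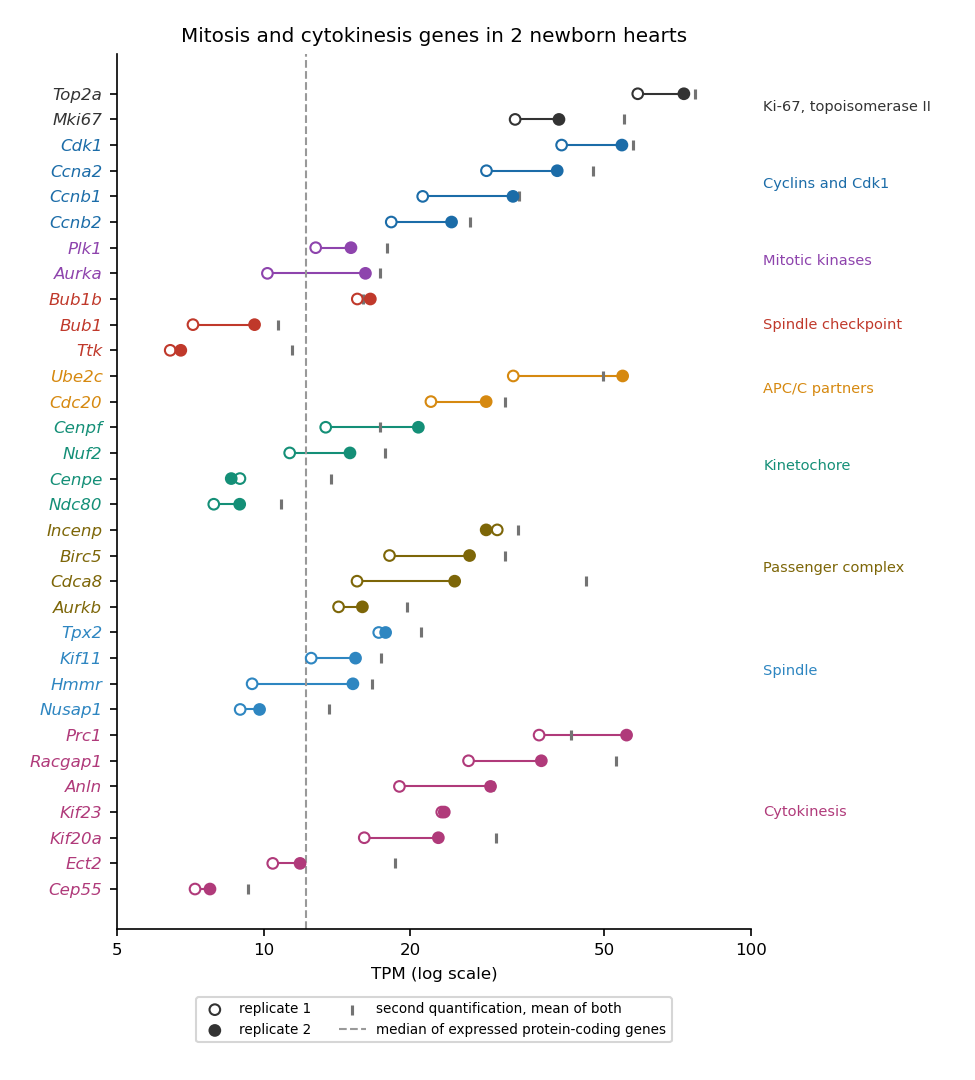
TPM on a log axis of the 32 genes in replicate 1 (open circles) and replicate 2 (filled circles), grouped and coloured by role, with the mean of the second quantification (ticks) and the median of expressed protein-coding genes (dashed line, 12.2 TPM). Filled circles lie to the right of open ones for 30 of 32 genes, with Incenp and Cenpe as the exceptions.

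The hearts were compared gene by gene as the log2 ratio of replicate 2 over replicate 1 from expected counts scaled by TMM in edgeR, with 95% intervals that cover counting error only. The genes had a median log2 ratio of 0.50, against -0.0033 over all 16271 genes that passed the filter on low counts and 0.016 over the 13553 nuclear protein-coding ones. Of the 32, 31 were higher in replicate 2, where 49.6% of all filtered genes and 52.7% of protein-coding genes were. Over 1.5-fold higher were 12 of 32, against 4.22% of all filtered genes and 3.98% of protein-coding genes, and none passed 2-fold. On TPM with a pseudocount of 1 the count over 1.5-fold was 7 of 32 and the median log2 ratio 0.37, and the share of all genes on that scale was not computed. The counting interval of the ratio lay wholly above 0 on the log2 scale for 28 of 32, against 23.4% of filtered genes. These shares are not matched for counts, which set the width of the interval. Each of the 32 had at least 345 counts in a library, while some filtered genes had far fewer, such as Rec8 with 11.

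Ube2c had the largest difference, with a log2 ratio of 0.87 (0.74 to 1.01), followed by Hmmr at 0.84 (0.72 to 0.97), Aurka at 0.82 (0.65 to 1.00) and Ccnb1 at 0.80 (0.68 to 0.92). The other genes over 1.5-fold were Cdca8 (log2 ratio 0.75), Ccna2 (0.72), Anln (0.71), Prc1 (0.67), Cenpf (0.65), Bub1 (0.63), Kif20a (0.63) and Birc5 (0.63). Racgap1 (0.58) and Cdk1 (0.57) lay just under that limit. Every one of the 9 roles but that of Top2a and Mki67, with log2 ratios of 0.46 and 0.45, had at least 1 gene over it.

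At the other end, the interval held 0 for Incenp, with a log2 ratio of -0.0074 (-0.13 to 0.12), Cenpe at 0.0047 (-0.10 to 0.11), Kif23 at 0.08 (-0.05 to 0.21) and Ttk at 0.10 (-0.11 to 0.32). With spike-in scaling, where the median of all filtered genes was 0.041, Incenp turned to 0.037, so that all 32 were above 0. With library totals, where that median was -0.067, Cenpe as well as Incenp lay below 0. Partners in a complex could differ, as did Kif23 (0.08) and Racgap1 (0.58) in centralspindlin and Incenp (-0.0074) and Cdca8 (0.75) in the passenger complex. By role the median log2 ratio was 0.67 for APC/C partners, 0.65 for Cdk1 and cyclins, 0.58 for cytokinesis, 0.57 for Plk1 and Aurka, 0.47 for the passenger complex, 0.40 for kinetochores, 0.34 for the spindle and 0.18 for the checkpoint.

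**Figure D3:**
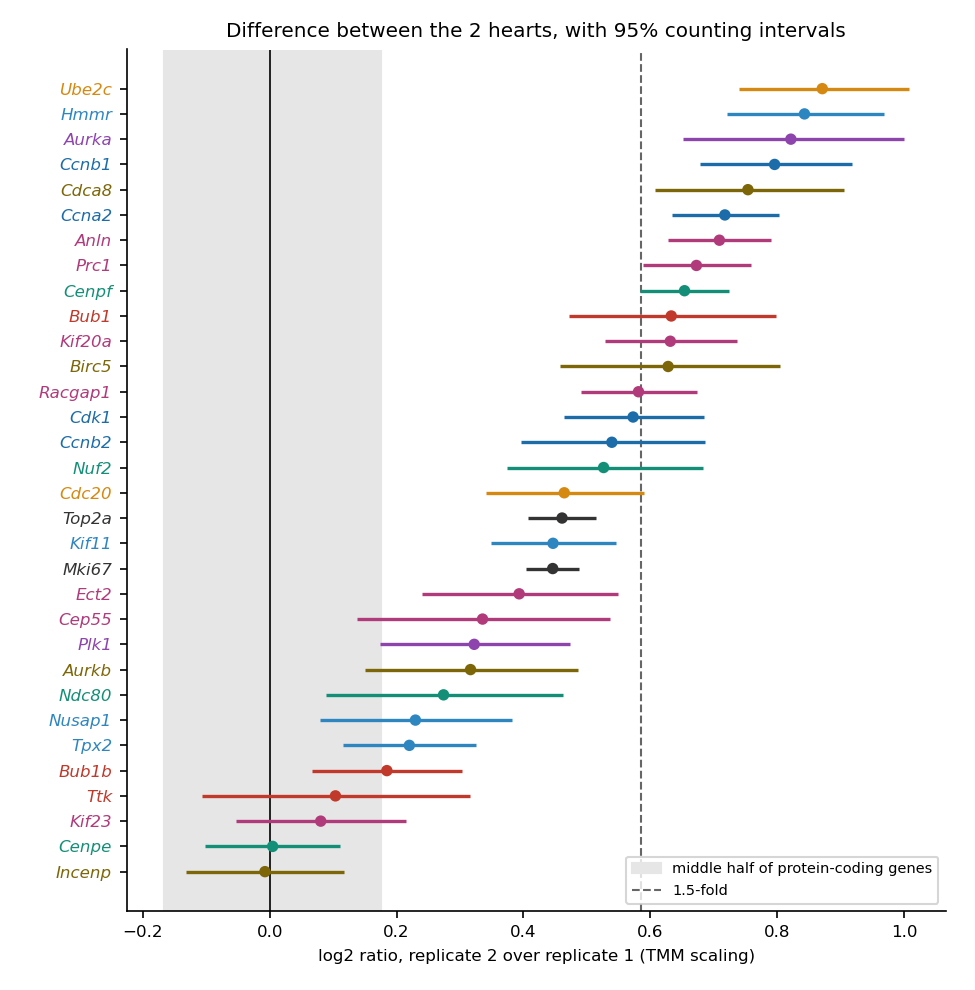
Log2 ratio of replicate 2 over replicate 1 (TMM-scaled counts) for each gene, coloured by role as in the plot of levels, with exact 95% counting intervals. The shaded band is the interquartile range of nuclear protein-coding genes (-0.17 to 0.18), the solid line is 0 and the dashed line is 1.5-fold, and 28 of 32 genes lie above the band.

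Other genes of the same processes were shifted less. Of 133 further mitosis genes, all expressed and all past the filter, 94 were higher in replicate 2, with a median log2 ratio of 0.17, and 11 were over 1.5-fold higher. Other kinetochore genes came closest to the 32, with a median log2 ratio of 0.30, 23 of 31 higher and 6 over 1.5-fold. Spc25, a subunit of the same complex as Ndc80 and Nuf2, had 11.22 and 21.01 TPM and a log2 ratio of 1.01, larger than that of any of the 32. Cenpa, the centromeric histone, was the most abundant of that list with 50.10 and 59.20 TPM (log2 ratio 0.23), and its chaperone Hjurp had 48.98 and 40.76 (-0.09). Cenph was low, with 2.54 and 3.89 TPM and a log2 ratio of 0.79.

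Other spindle and centrosome genes showed a median log2 ratio of 0.28, and 23 of 30 were higher. The centrosome kinase Nek2 had 7.53 and 12.18 TPM (log2 ratio 0.84) and Ckap2l 11.30 and 15.85 (0.62), while Numa1, which anchors spindle poles, had 52.25 and 41.31 (-0.23) and Ckap5 35.70 and 38.28 (0.25). Condensin and cohesin genes showed a median log2 ratio of 0.15, and 14 of 20 were higher but none over 1.5-fold. Rad21, the cohesin subunit cut at anaphase, had 52.73 and 63.64 TPM, the condensin subunit Ncapd2 had 46.04 and 42.26, and the cohesin protectors Sgo1 and Sgo2a had log2 ratios of 0.43 each.

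Further regulators of mitotic entry and exit, including APC/C subunits, showed a median log2 ratio of 0.07, and 20 of 32 were higher. Anapc5, an APC/C subunit, was level at 118.83 and 115.65 TPM (log2 ratio 0.09). Ube2s, which lengthens the chains that Ube2c begins, had 82.43 and 119.64 (0.42), the Cdk1 partner Cks2 had 22.10 and 32.23 (0.67), and Mastl, the kinase that holds back a Cdk1-opposing phosphatase, had 3.93 and 5.12 (0.67). Other cytokinesis genes, many of which serve resting cells too, showed a median log2 ratio of 0.13, and 16 of 22 were higher. Myl9 led them with 669.51 and 531.72 TPM, Rhoa had 137.94 and 143.27, and the lowest log2 ratio was that of Cep131 (-0.52).

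Transcription factors of the programme were not shifted as a list, with a median log2 ratio of -0.07 that stayed below 0 under each scaling run, and 11 of 23 higher. E2f1 had 10.79 and 14.95 TPM (log2 ratio 0.60), whereas Nfya, a subunit of the CCAAT-binding factor NF-Y, had 23.85 and 13.94 TPM (-0.62). The NF-Y subunit Nfyc (41.25 and 40.28 TPM, log2 ratio 0.19) and the chromatin protein Rbbp4 (76.48 and 83.61 TPM, 0.24) were the most abundant. Foxm1 and Mybl2, named after their values were seen, had 11.96 and 17.62 TPM (0.58) and 8.67 and 5.58 TPM (-0.18).

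S phase genes were higher in replicate 2 for 22 of 25, with a median log2 ratio of 0.19 and 1 over 1.5-fold. That gene was Rrm2, the cell cycle regulated subunit of ribonucleotide reductase, with 39.55 and 69.85 TPM and a log2 ratio of 1.01. Its partner Rrm1 had 32.69 and 42.41 TPM (0.57) and the replication clamp Pcna had 64.40 and 77.26 (0.40). Of 14 genes of G1 phase and inhibitors, 12 were expressed and passed the filter, with a median log2 ratio of 0.13 and 8 higher. Ccnd2 was the most abundant with 142.65 and 122.26 TPM, Cdk4 had 115.07 and 121.43, and Cdkn1a, the inhibitor p21, had 16.13 and 23.96 with a log2 ratio of 0.71. None of 6 meiotic relatives, among them Ccna1 and Rec8, was expressed, and Sgo2b was listed at 0 in both libraries.

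Markers of several cell types were also higher in replicate 2. Fibroblast markers showed a median log2 ratio of 0.45 and 11 of 12 were higher, and their summed level was 1703 TPM in replicate 1 and 2244 in replicate 2. Col3a1 had 466.68 and 693.17 TPM, Col1a1 309.05 and 405.22, and Dpt, with the largest log2 ratio of the list (0.79), 54.29 and 85.73. Erythroid markers, with 12 of 13 matched and 9 past the filter, showed a median log2 ratio of 1.72 and 8 of 9 were higher, with a summed level of 1516 and 5360 TPM. No matched marker of any cell type list was at 0 in both libraries. Epicardial markers (median log2 ratio 0.30, 9 of 10 higher, summed level 75.1 and 84.7 TPM) and macrophage markers (0.19, 8 of 12 higher, 53.3 and 51.7 TPM) were also above the middle of all genes.

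Mural markers showed a median log2 ratio of 0.13 and 8 of 10 were higher, and Acta2 stood out among them at 340.97 and 630.65 TPM (log2 ratio 0.97). Endothelial markers were near level, at 0.05 (-0.011 with library totals) with 8 of 12 higher and a summed level of 997 and 906 TPM. Cardiomyocyte markers showed a median log2 ratio of 0.09 and 8 of 12 were higher, but their summed level was lower in replicate 2, at 41467 and 39515 TPM. Myh6, the adult fast myosin, had 8663 and 7208 TPM and a log2 ratio of -0.15. Myh7, the fetal slow myosin, had a log2 ratio of 0.69 from counts but was nearly level by TPM, at 780.48 and 806.82. Schwann and neuron markers were low, with 1 of 10 expressed, 6 of 7 filtered ones higher and a summed level of 7.22 and 9.88 TPM, and no lymphoid marker of 9 was expressed, with summed levels of 1.18 and 1.98 TPM. The part of these cell types in the difference of the mitosis genes was not tested.

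**Figure D4:**
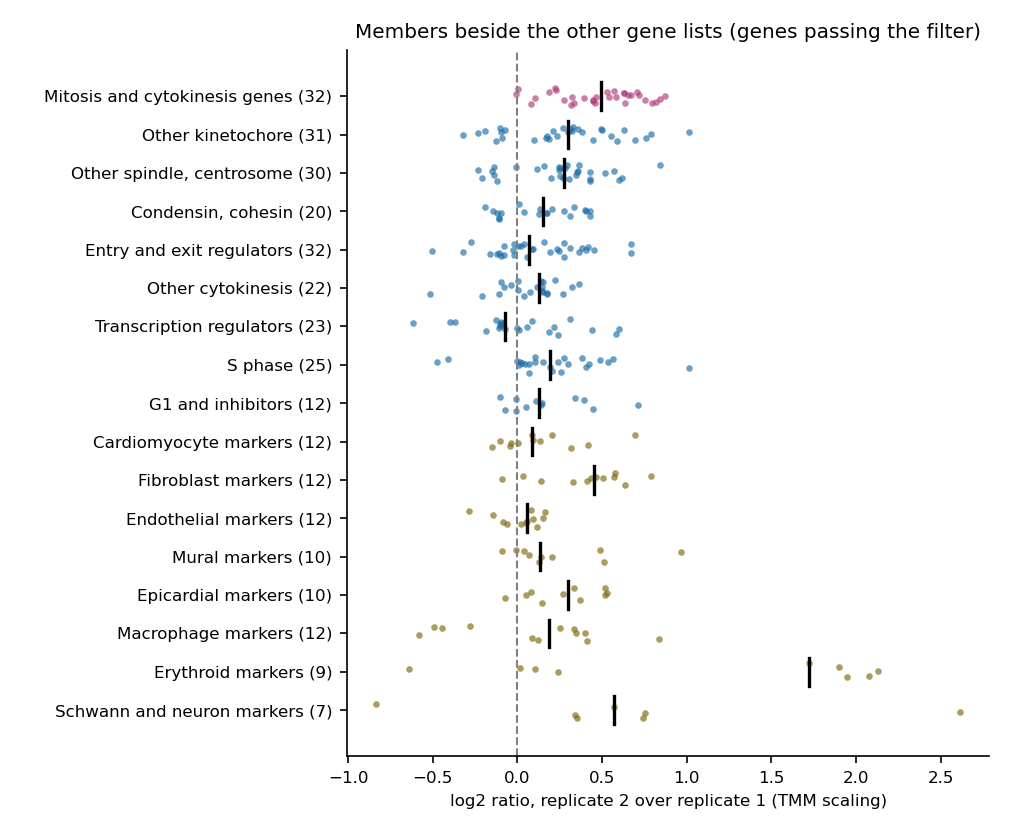
Log2 ratio of replicate 2 over replicate 1 (TMM-scaled counts) of single genes (points) that passed the filter, in the 32 genes, in other cell cycle lists and in cell type marker lists, with list medians (bars) and the number of genes in brackets (the lists with 3 genes or fewer are left out). The median of the 32 genes is 0.50, that of fibroblast markers 0.45 and that of erythroid markers 1.72, and the cardiomyocyte median is 0.09.

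The promoter elements were then set beside the difference between the hearts. Among the 27 genes with a window, the median log2 ratio was 0.54 for the 21 with a CHR near the start and 0.49 for the 6 without. With a CHR anywhere in the window it was 0.50 for 22 genes, against 0.53 for the 5 without. For the 100 bases before the start alone it was 0.46 for 8 genes, Cep55 among them by a second window only, against 0.54 for the 19 without. The direction thus depended on the placement. The median was 0.57 for the 17 with a CHR near the start plus a CCAAT box in those 100 bases. It was 0.39 for the other 10. With both elements anywhere in the window it was 0.54 for 19 genes and 0.43 for the other 8. Among other filtered protein-coding genes, 701 had both elements anywhere in the window, and 54.8% of these were higher in replicate 2, with a median log2 ratio of 0.027 and 4.14% over 1.5-fold. Of the 9788 without both, 52.1% were higher, with a median of 0.013 and 3.70% over 1.5-fold, so the whole window separated the genes little. In the narrower placement, whose width was chosen after seeing where the matches fell, 116 other genes had a CHR near the start and a CCAAT box in the 100 bases before it. Of these, 75.0% were higher in replicate 2, with a median log2 ratio of 0.14 and 9.48% over 1.5-fold. Of the 10373 without this placement, 52.0% were higher, with a median of 0.012 and 3.66% over 1.5-fold. These shares are descriptions of the pair of libraries, and the 116 genes include some of the mitosis genes listed above.

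Partners were compared within each library, as log2 ratios of TPM, in 16 fixed pairs. The same partner was higher in both hearts in 15 pairs. The exception was Aurka over Aurkb, at -0.48 in replicate 1 and 0.02 in replicate 2, which differed by less than the spread between hearts. For this pair, Ccnb1 and Ccnb2, Aurka and Tpx2, Birc5 and Cdca8, and Kif23 and Racgap1, the deposited TPM intervals overlapped in at least 1 library. Cdk1 exceeded Cep55, the early and the late end of mitosis, by 2.64 ± 0.22, or 6.23-fold. Prc1 exceeded its central spindle partner Kif20a by 1.23 ± 0.07 (0.51 in the second quantification, which is described further on), and Anln exceeded Ect2 by 1.07 ± 0.31.

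Several partners of 1 complex were unequal. Ect2 was below Racgap1, its recruiting partner, by a log2 TPM ratio of -1.48 ± 0.22, and Bub1 below Bub1b by -0.95 ± 0.23. Aurkb was below its scaffold Incenp by -0.96 ± 0.17 at gene level, with the short forms of Incenp included. Cenpe was below Cenpf by -0.92 ± 0.49, with -0.58 in replicate 1 and -1.27 in replicate 2, but by the second quantification the mean was -0.31, with -0.08 and -0.54 in the hearts. Kif23 was below Racgap1 by -0.42 ± 0.34, with overlapping deposited intervals in replicate 1, and by -1.18 in the second quantification. Ndc80 was below Nuf2 by -0.63 ± 0.17. The second quantification gave the same direction of the mean for 15 of 16 pairs, all but Birc5 over Cdca8, which went from 0.16 to -0.52.

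Levels also depended on how transcripts were quantified. A second deposited quantification of the same libraries gave higher TPM in general, with a median ratio to the first of 1.28 over the 32 genes and 1.35 over all expressed genes. For 5 of 32 it was over 1.5-fold higher in both libraries, against 21.0% of expressed genes, and for none of 32 over 1.5-fold lower, against 4.41%. The 5 were Cdca8, Ttk, Racgap1, Cenpe and Kif20a. Cdca8 had a mean of 20.1 TPM in the first and 45.9 in the second, a ratio of 2.28, whereas Prc1 was the lowest of the 32 at 0.924. For Ttk the means were 6.595 and 11.4 TPM. Between the hearts, the second quantification gave a median log2 ratio of 0.49, with 32 of 32 genes higher in replicate 2. The median of all filtered genes was 0.017 there.

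The transcript tables showed which annotated forms carried these levels. The 32 genes have 191 annotated transcripts, and 1 gene, Ccnb2, has a single one. The median share of a gene's TPM taken by its leading transcript was 74.2% ± 2.37 (82.0% by the second quantification). This leader was protein-coding in 31 of 32 genes and was the same in both hearts for 29. Ube2c-202 (967 nt) held 99.8%, Mki67-201 (10061 nt) 99.4%, Kif11-201 (4819 nt) 96.1% and Cdc20-201 (1793 nt) 94.8% of their genes. The quantifications named the same leader for 27 genes and differed for Aurka, Ect2, Incenp, Prc1 and Racgap1.

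Forms annotated as non-coding took a large share in a few genes. The median share of protein-coding forms was 89.0% of the gene (91.6% by the second quantification), and it passed 90% in 15 genes (18 by the second). They held 37.4% in Kif23 (55.3%), where retained-intron forms took 34.2% and processed transcripts 28.5%. In Top2a they held 58.1% (64.9%), all of it Top2a-201 (5221 nt), and the remaining share went to processed transcripts, led by Top2a-207 (803 nt) at 14.6% and Top2a-203 (796 nt) at 13.5%. Counted as Top2a-201 alone, Top2a stood at 33.73 and 42.81 TPM.

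Prc1 was the gene whose leader was not protein-coding. Its short retained-intron form Prc1-214 (595 nt) held 28.4% and 36.5% in the 2 hearts, against 29.8% and 34.8% for the protein-coding Prc1-210 (3008 nt), so the order of these forms changed between the hearts. By the second quantification Prc1-214 held 3.78% and Prc1-210 held 36.4%. Kif20a-201 held 21.9% of its gene in replicate 1 and 55.3% in replicate 2, and Aurka-203 held 48.8% and 79.8%, the widest differences between hearts among leading forms of the first quantification. By the second, Kif20a-201 held 56.9% and 69.9%, and Aurka-203 was listed at 0% and held 3.60%. Ect2 was divided over 13 transcripts, with protein-coding forms at 70.8% in the first quantification and 41.5% in the second.

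**Figure D5:**
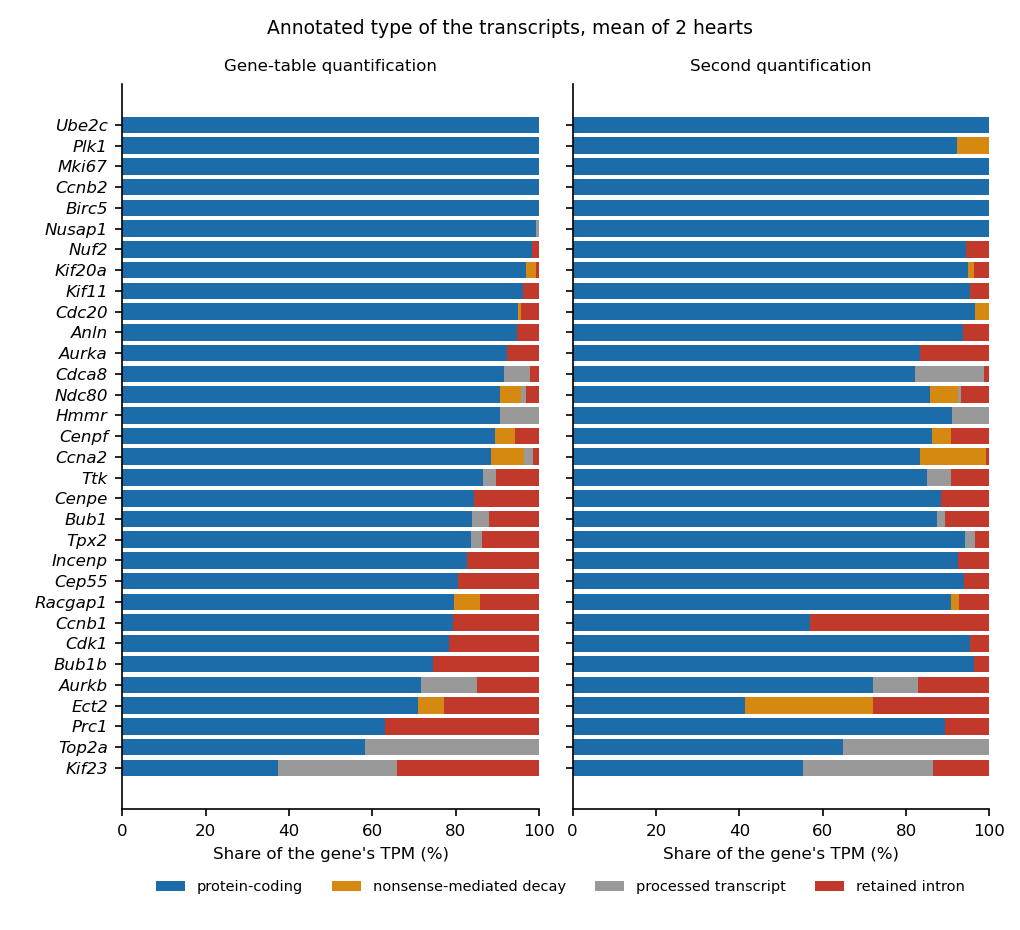
Share of each gene's TPM (percent, mean of 2 hearts) held by transcripts of each annotated type, in the first quantification (left) and the second (right), genes ordered by their protein-coding share in the first. Protein-coding forms hold over 90% in 15 genes on the left and 18 on the right, and 37.4% (left) and 55.3% (right) in Kif23.

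Overlapping genes could share reads with 18 of the 32, 8 of them with a gene on the same strand, none of which had a mean above 0.945 TPM. The highest neighbours lay on the opposite strand, which are Cdc23 (26.8 TPM) beside Kif20a, Elovl1 (18.5 TPM) beside Cdc20 and Exosc9 (12.4 TPM) beside Ccna2. The libraries are stranded per the labels, but whether counting used strand was not given in the sources used here, so reads in these overlaps may be assigned to either gene. The pseudogenes Ccnb1-ps and Ccnb2-ps, copies of the B-type cyclins, had mean levels of 0.65 and 0.155 TPM.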

How the data were processed

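The deposited gene tables hold, per the file headers, expected counts and TPM per gene with interval bounds of TPM whose level is not stated, and a transcript table gives the same per transcript with the transcript's percent of its gene. The deposited interval bounds, a signal on the TPM scale, were used only to see whether they hold the TPM and whether those of paired genes overlap. A further deposited transcript table holds estimated counts and TPM from another quantification of the same libraries, summed here per gene (the second quantification). Per the deposited notes the build was mm10 with GENCODE M21, and the sources used here do not name the aligner or the tool versions. That genome is of C57BL/6J, and how reads of CAST/EiJ alleles were counted was not tested.

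Expected counts were rounded, genes were filtered with filterByExpr and scaled by TMM in edgeR 4.0.16 under R 4.3.3 (prior count 2), and DESeq2 1.42.0 and spike-in scaling were alternatives. Pair ratios used TPM with a pseudocount of 0.1. Intervals are exact 95% binomial intervals on counts. They cover counting error alone. PCR copies of a molecule are counted too, so the intervals may be too narrow even for that. Tables and sequences were handled in Python 3.11.15 with pandas 2.3.3, NumPy 2.4.6 and SciPy 1.17.1. The ratio step was tested on simulated data. Library sizes are sums over mouse genes, without spike-ins and unnamed short rows.

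The 32 genes and all gene lists were chosen with earlier results of these data known. All 32 genes are named. From every other list, those named are the 2 with the highest mean TPM, any at 0 in both libraries and up to 2 with the largest absolute log2 ratio, of which not every one is printed, plus genes said to be named after their values were seen. Of 301 listed genes, 300 were matched by symbol. A search of the proteins for degradation motifs was planned and was not run, as protein sequences were not used here.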

Additional observations from a re-analysis of the deposited data

How the results depend on the processing

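Of 49 alternatives, 37 left a result within its limits (a count within 1.5 times, a log2 ratio within 0.1, other values within the spread between libraries) and 12 moved it. Of the summary results only the median log2 ratio has a direction, and it kept its sign, but single genes and pairs changed theirs. No gene had under 345 counts or 6.43 TPM in a library. The changed filters and the limits of 0.5 and 5 TPM could therefore drop none, and they count among those within limits. Leaving out 1 of the 2 libraries could not lower the count expressed in both. Nor could it move the mean share of TPM past the spread between libraries. These alternatives, fixed in outcome, also count among those within limits. The Incenp ratio between hearts went from -0.0074 to 0.037 (log2) with spike-in scaling, and Cenpe from 0.0047 to -0.061 with library totals. Birc5 over Cdca8 went from 0.16 to -0.52 by the second quantification and to -0.45 on CPM, where Cdc20 over Ube2c (-0.74 to 0.16) and Kif11 over Tpx2 (-0.33 to 0.20) also turned. CPM, unlike TPM, is not corrected for gene length, so a CPM ratio of 2 genes also reflects their lengths. By the second quantification Cdc20 over Ube2c (-0.65) and Kif11 over Tpx2 (-0.27) kept their direction. The share of TPM held by the 32 genes was 0.0926% by the second quantification, 0.161% of protein-coding nuclear TPM and 0.154% of expected counts, and their median level was 32.1 CPM in place of 18.5 TPM. On TPM the median log2 ratio was 0.39 with a pseudocount of 0.1 and 0.37 with a pseudocount of 1, and 7 genes in place of 12 were over 1.5-fold higher with the latter. Over all scalings, units and filters run, the median log2 ratio was 0.37 to 0.54, with 30 to 32 genes higher and 7 to 14 over 1.5-fold. The median of all filtered genes also moved, to 0.041 with spike-in scaling, -0.067 with library totals and 0.017 by the second quantification. Shares of all genes higher or over 1.5-fold were computed for the TMM ratio only, so these counts have no such share beside them. Genes over 1.5-fold apart between quantifications numbered 1 in place of 5 after centring on the median of expressed genes, and 1 at 2-fold. The leading transcript's median share was 82.0% by the second quantification. The CHR count was 8 of 27 in the 100 bases before the start alone, a window that leaves out matches at or after it. Cep55 is among the 8 through a second window (base -33), as its match in the window plotted lies at base 25. Without either replicate in turn, all 32 genes stayed expressed, the share of TPM was 0.0620% to 0.0814%, the median level 15.8 to 21.8 TPM and the leading share 73.8% to 77.2%. Ratios between hearts rest on 1 library a side and allow no such check. No paired analysis was possible because there is 1 group.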
